A study of Mus musculus with 10 samples.

Results

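The genes described here are 9 members of the pathway by which noradrenaline acts on interscapular brown adipose tissue (iBAT): the adrenergic receptors *Adrb1*, *Adrb3*, *Adra1a* and *Adra2a*, the G protein gene *Gnas*, the adenylyl cyclase *Adcy3*, the protein kinase A (PKA) subunits *Prkar2b* and *Prkaca*, and the cAMP phosphodiesterase *Pde4b*. They were chosen by name, as 9 of the 27267 genes listed, and 8 of the 9 passed the filter on low values. *Adra2a* did not. The RNA came from iBAT of C57BL/6 mice labelled as males of 4 weeks on a chow diet, 5 wild type and 5 with a global deletion of *Mgp*, an inhibitor of bone morphogenetic proteins. The deletion is a germline null allele, so every cell type of the *Mgp*-KO mouse lacks the gene, and animals differ in more than their brown adipocytes. The values are normalized counts, that is reads on a gene divided by the size factor of the library.

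Sympathetic nerves release noradrenaline in brown fat. Beta-adrenergic receptors couple to the stimulatory G protein, whose alpha subunit is encoded by *Gnas*, and adenylyl cyclases then make cAMP. cAMP binds the regulatory subunits of PKA and frees the catalytic subunits, which act on lipolysis and on the transcription of thermogenic genes such as *Ucp1* and *Dio2*. Phosphodiesterases degrade cAMP, alpha-2 receptors couple to inhibitory G proteins, and alpha-1 receptors signal through phospholipase C and calcium. The beta-3 receptor is known as the main subtype of mature brown adipocytes, and the beta-1 receptor as the subtype of their precursors.

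The 10 libraries held 9253793 to 22252260 reads on genes. *Mgp*, the targeted gene, stood at 576, 489, 466, 1146 and 839 normalized counts in wild type 1 to 5. The libraries labelled *Mgp*-KO are called KO 1 to KO 5 from here on. *Mgp* was at 0, 0.765 and 0.821 in KO 1 to KO 3, but at 500.2 in KO 4 and 331 in KO 5, which goes against these labels. *Xist* was at 5094 in wild type 2 and at 0.754 to 44.0 in the other libraries, against the male label of wild type 2. Replicates 4 and 5 had fewer reads than replicates 1 to 3 (9253793 to 13281873 against 19616366 to 22252260) and a larger share of mitochondrial ribosomal RNA (6.50% to 16.7% against 0.771% to 1.72%). Each comparison was therefore made over all 10 libraries, again with these sets as a term, and within each set. Brown adipocyte markers were high in every library, with a sum over 12 genes of 241444 to 424187 in wild type and of 180637 to 323807 in KO 1 to KO 5. Within each set the sums were lower in KO without overlap. They were 241444 to 262465 in wild type and 180637 to 219647 in KO in replicates 1 to 3. In replicates 4 and 5 they were 422007 to 424187 and 219390 to 323807.

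Promoter sequences of RefSeq (GRCm38.p6, a window of 250 bases before to 50 after a start) were searched for the cAMP response element (CRE) TGACGTCA, to which CREB binds, and for its shorter core TGACG, which the full element contains, on both strands. Windows were found for 7 of the 9 members, and not for *Adrb3* and *Adra1a*. None of their 16 windows held the full element, and 7 windows of 5 genes (*Adra2a*, *Adrb1*, *Gnas*, *Pde4b* and *Prkaca*) held the core. Of 17 windows of 15 genes of the cAMP target list, 1 held the full element and 11 the core. Among all 32851 windows 1.79% held the full element and 20.8% the core. A match is a description of the letters and not a bound site. The 250 bases before the start are shown for *Prkar2b* and *Adrb1*, the members with the smallest p after *Adrb3*, which had no window, and for the 2 thermogenic targets *Ucp1* and *Dio2*. They read 5′ to 3′ along the strand of the gene, for the most upstream start of each, with the core or the full element in capitals. In *Prkar2b* (chr12:32061278-32061527, minus strand) there is no match. In *Adrb1* (chr19:56721867-56722116, plus strand) the core begins 90 bases upstream of the start, in *Ucp1* (chr8:83290098-83290347, plus strand) 147 bases upstream. In *Dio2* (chr12:90739039-90739288, minus strand) the full element begins 95 bases upstream. These distances are from the RefSeq start. In the GENCODE gene models, used below for exon lengths, *Adrb1* begins at 56722199 and *Dio2* at 90738438. Both positions lie downstream of the printed windows, so the distances to those starts are longer.
Prkar2b: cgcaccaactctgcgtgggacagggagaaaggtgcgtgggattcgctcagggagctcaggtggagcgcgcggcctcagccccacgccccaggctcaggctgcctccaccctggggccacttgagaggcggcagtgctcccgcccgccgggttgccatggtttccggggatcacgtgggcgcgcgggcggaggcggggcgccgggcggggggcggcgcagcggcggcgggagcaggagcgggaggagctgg
Adrb1: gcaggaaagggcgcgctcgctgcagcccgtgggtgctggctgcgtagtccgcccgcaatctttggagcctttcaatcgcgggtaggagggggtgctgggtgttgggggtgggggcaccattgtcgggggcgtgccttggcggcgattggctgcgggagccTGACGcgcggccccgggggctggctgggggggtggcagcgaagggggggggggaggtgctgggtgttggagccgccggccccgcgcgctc
Ucp1: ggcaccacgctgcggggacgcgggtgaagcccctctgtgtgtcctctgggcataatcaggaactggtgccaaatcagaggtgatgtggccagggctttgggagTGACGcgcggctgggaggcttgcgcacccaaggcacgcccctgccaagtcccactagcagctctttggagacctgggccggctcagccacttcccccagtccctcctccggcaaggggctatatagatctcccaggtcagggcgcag
Dio2: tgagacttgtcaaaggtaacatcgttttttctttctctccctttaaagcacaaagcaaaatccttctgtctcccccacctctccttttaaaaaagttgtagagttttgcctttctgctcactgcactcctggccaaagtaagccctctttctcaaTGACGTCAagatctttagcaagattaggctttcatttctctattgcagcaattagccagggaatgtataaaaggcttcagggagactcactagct

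Over all libraries *Adrb3* and *Prkar2b* were the tested members whose groups did not overlap, both lower in the libraries labelled *Mgp*-KO. *Adrb3* was the only member with an adjusted p under 0.05 within replicates 1 to 3 in limma. *Adrb3* encodes the beta-3 receptor (GRCm38 chr8:27225776-27250616, minus strand). Its normalized counts were 2533, 2591, 2799, 1200.4 and 2589 in wild type 1 to 5. They were 290.2, 189.7, 334, 868 and 951 in KO 1 to KO 5. Every library labelled *Mgp*-KO lay below every wild-type library, and KO 1 to KO 3 lay below KO 4 and KO 5. The means were 2343 ± 647 and 526 ± 354 (SD, n = 5 each), a 4.45-fold lower level. Limma gave a log2 fold change of -2.37 ± 0.44 (SE) with an adjusted p of 0.0575, which missed the threshold of 0.05. With a term for the sets *Adrb3* fell by 2.37 ± 0.40 on the log2 scale (limma, adjusted p = 0.0163). DESeq2 on the reads recovered from the normalized counts also called it without that term (adjusted p = 2.96e-04). Single libraries decided the limma calls. Without wild type 4 or KO 4 *Adrb3* passed with no set term (adjusted p = 0.0491 and 0.0307), and with the set term it missed the threshold without wild type 2 or wild type 3 (adjusted p = 0.0555 and 0.0605).

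Within replicates 1 to 3 *Adrb3* fell from 2641 ± 140 to 271 ± 74.1 normalized counts (SD, n = 3 each), a 9.73-fold lower level, and limma gave -3.32 ± 0.21 with an adjusted p of 0.00142. Within replicates 4 and 5 the means were 1895 and 909 (n = 2 each), with -0.96 ± 0.43 and an adjusted p of 0.679. The difference between these differences was 2.36 ± 0.45 on the log2 scale. It did not pass in limma (adjusted p = 0.455) and passed in DESeq2 (adjusted p = 0.00453). Without KO 5 limma called it (adjusted p = 0.0289), but this fit called 11.8% of all genes, and KO 4, then the lone KO library of its set, is assumed to vary like the other groups. Without KO 4 and KO 5 the difference of *Adrb3* was -3.08 (adjusted p = 0.00279), and without wild type 2 as well it was -3.03 (adjusted p = 0.0117). In whole tissue, fewer cells that express a gene and less RNA of it per cell cannot be told apart. The gene overlaps 839 bases of *Gm45470* on the other strand, whose reads may not be separable since the strand setting of the counting was not given in the sources used here.

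**Figure D1:**
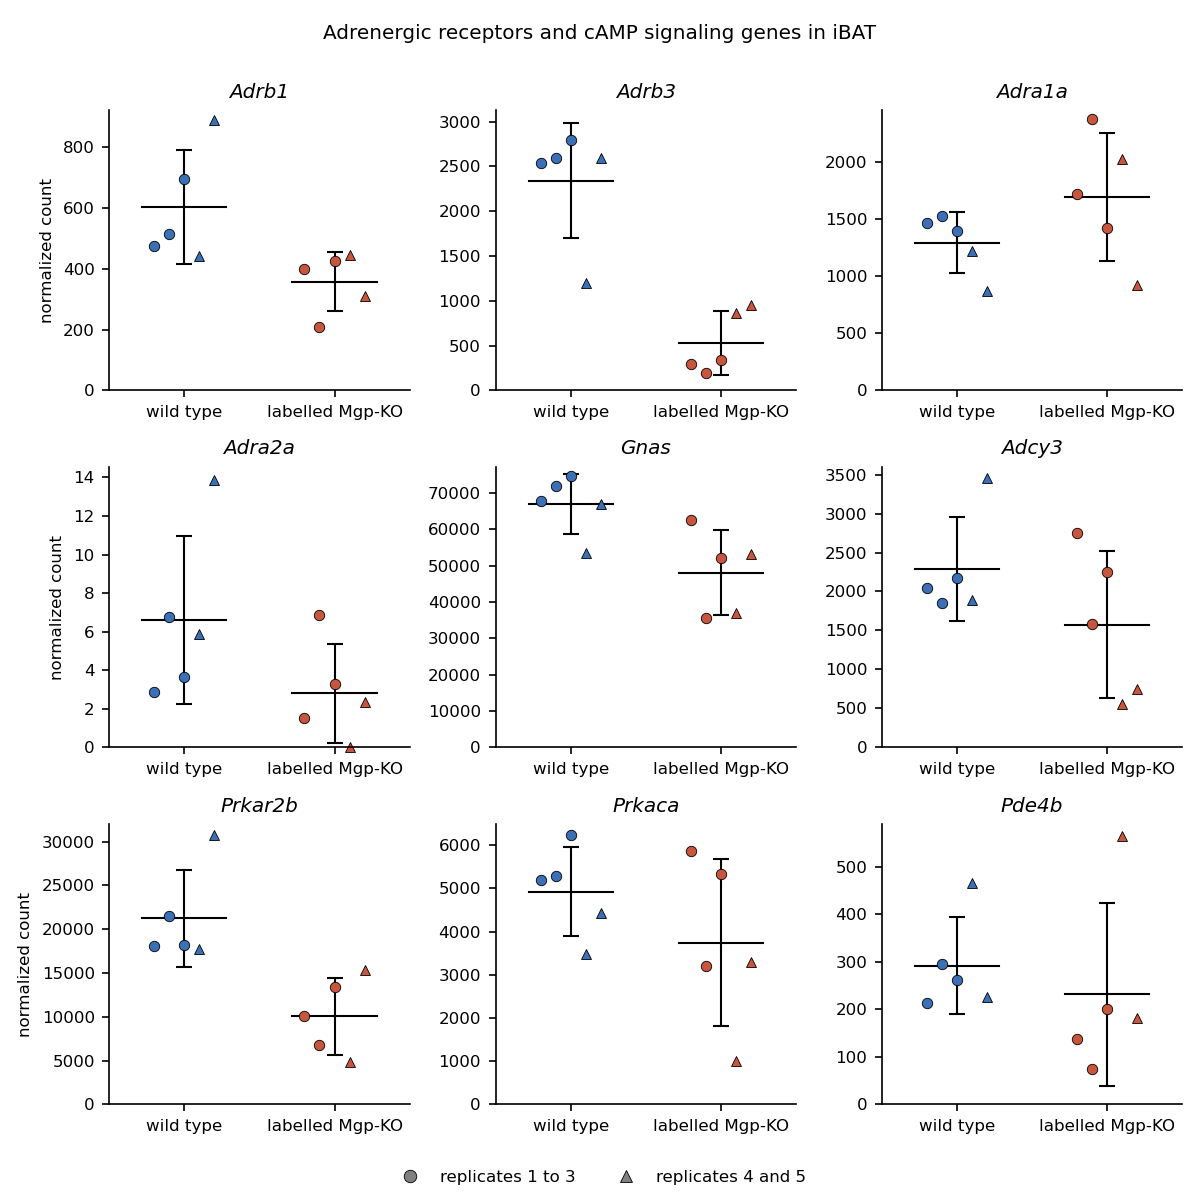
Normalized counts of the 9 genes in each library (vertical axes, linear, from 0) in wild-type libraries and in those labelled *Mgp*-KO; circles are replicates 1 to 3, triangles replicates 4 and 5, and lines with bars the mean ± SD of 5 libraries. The groups do not overlap for *Adrb3*, where the highest KO value is 951 and the lowest wild-type value 1200.4, nor for *Prkar2b*.

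*Adrb1* encodes the beta-1 receptor (chr19:56722199-56733113, plus strand). It was measured at 474, 513, 696, 443 and 888 normalized counts in wild type 1 to 5, and at 399, 209, 425, 445 and 311 in KO 1 to KO 5. KO 4 lay just above wild type 4, so the groups overlapped. The means were 603 ± 187 and 358 ± 97.9, with a log2 fold change of -0.75 ± 0.26 that did not pass (limma, adjusted p = 0.325, and 0.136 with the set term). The size was nearly the same in both sets, -0.75 ± 0.29 in replicates 1 to 3 and -0.75 ± 0.43 in replicates 4 and 5.

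*Adra1a* encodes the alpha-1A receptor (chr14:66635251-66771168, plus strand). Its values were 1464, 1527, 1390.2, 1215 and 869 in wild type, and 1715, 2377, 1423, 2027 and 918 in KO 1 to KO 5. The highest values were those of KO 2 and KO 4, and KO 5 and wild type 5 were the lowest, so the groups overlapped. It was the 1 tested member with a positive difference, 0.34 ± 0.27 on the log2 scale, and did not pass (limma, adjusted p = 0.698). The size rested on single libraries, with 0.20 without KO 2, 0.21 without wild type 5 and 0.55 without KO 5.

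*Adra2a*, the alpha-2A receptor (chr19:54044151-54048982, plus strand), was close to the limit of detection. It had 2.86, 6.74, 3.68, 5.86 and 13.8 normalized counts in wild type and 1.51, 6.88, 3.28, 0 and 2.34 in KO 1 to KO 5. A value of 0 in KO 4 allows up to 4.86 normalized counts, which is what 3 reads give in that library. The floor of 3 reads came to 2.15 to 5.19 normalized counts over the libraries, and it covers counting error alone, because PCR copies of a molecule were counted as separate reads. No difference was detectable at this depth. The gene was left out of the main fit by the filter, and where it entered DESeq2 over all libraries it was not called (-1.08 ± 0.79, adjusted p = 0.604).

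To compare receptor subtypes with each other, normalized counts were divided by the length of the merged exons of each gene. Among the receptors reported here *Adrb3* led in each of the 5 wild-type libraries, at 356 to 829 normalized counts per kb. *Adrb1* (131 to 262 per kb), *Adra1a* (99.5 to 175.0) and *Adra1d*, the alpha-1D receptor (17.0 to 224), followed and overlapped one another, and each lay below the lowest value of *Adrb3*. *Adra1b*, *Adra2a*, *Adra2b* and *Adra2c* were at or under 2.86 per kb in wild type.

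In KO 1 to KO 3 the order was different. *Adrb3* was at 56.2 to 99.0 per kb there, below *Adra1a* (163 to 272) and *Adra1d* (173 to 364) in each library. *Adrb1*, at 61.7 to 126 per kb, was also above *Adrb3* in each of these 3 libraries, though their ranges overlapped. In KO 4 and KO 5 *Adrb3* was at 257 and 282 per kb, above *Adra1a* (232 and 105), *Adrb1* (132 and 91.9) and *Adra1d* (7.67 and 41.4), as in wild type. *Adra1d* varied with the set as well as within it, at 277, 389, 425, 32.2 and 46.7 normalized counts in wild type and 692, 329, 572, 14.6 and 78.5 in KO 1 to KO 5. Its groups overlapped, and its difference of 0.23 ± 1.08 on the log2 scale did not pass (limma, adjusted p = 0.965).

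**Figure D2:**
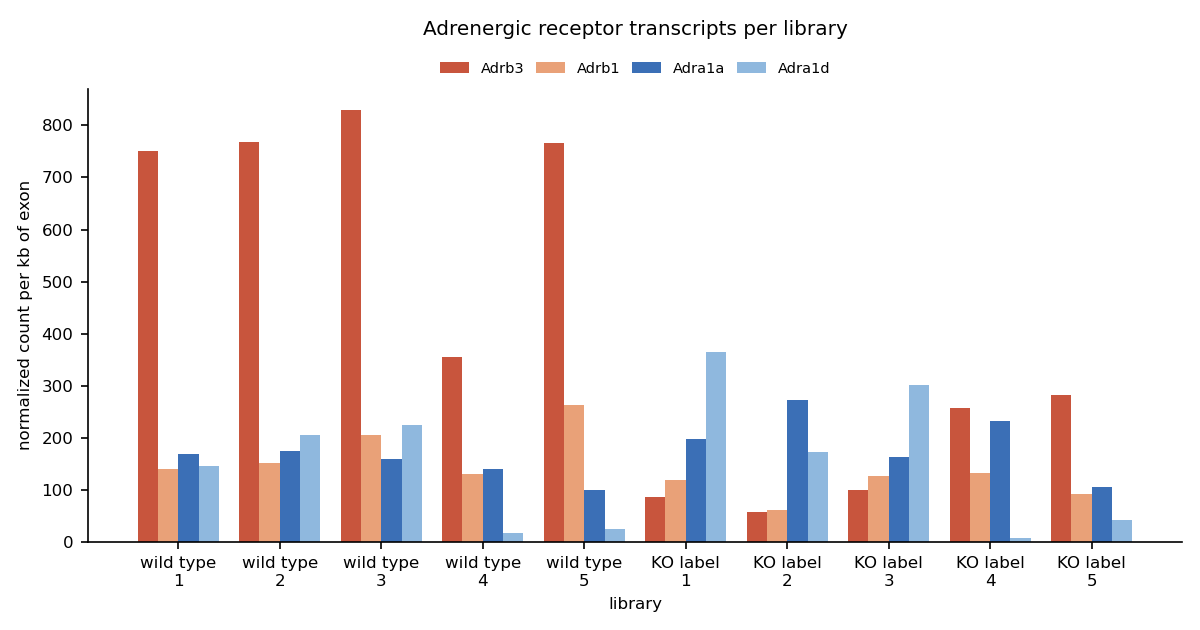
Normalized counts per kb of exon (vertical axis, linear, from 0) of *Adrb3*, *Adrb1*, *Adra1a* and *Adra1d* in each library (horizontal axis, wild type 1 to 5 and libraries labelled KO 1 to 5). *Adrb3* is the tallest of the 4 bars in wild type and in KO 4 and KO 5, and in KO 1 to KO 3 it stands at 56.2 to 99.0 per kb, below *Adra1a* and *Adra1d*.

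Ratios within a library, taken on the normalized count + 1, depend little on its size factor where both genes are well above 1. The log2 ratio of *Adrb1* to *Adrb3* was -1.95 ± 0.45 in wild type and -0.33 ± 0.91 in the libraries labelled *Mgp*-KO (SD, n = 5 each), a difference of 1.62 (two-sided exact permutation test, p = 0.0238, adjusted over 4 ratios p = 0.0476). The log2 ratio of *Adra1a* to *Adrb3* differed by 2.72 (exact permutation p = 0.0159, adjusted p = 0.0476). Both adjusted values rose above the threshold when wild type 1, 2, 3 or 5 was left out (0.0635 to 0.0952). The ratio of *Prkar2b* to *Prkaca* differed by -0.57 and did not pass (exact permutation, adjusted p = 0.212). That of *Adra2a* to *Adrb3* differed by 1.24 (adjusted p = 0.230), but with *Adra2a* near the floor this value depends on the pseudocount and on *Adrb3*, and nothing is read from it. Within replicates 1 to 3 the differences of the 4 ratios were 2.57, 3.62, 3.08 and -0.73. Their exact p of 0.1 is the smallest that 3 against 3 libraries can give. Within replicates 4 and 5 they were 0.20, 1.36, -1.51 and -0.33.

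*Gnas* (chr2:174284320-174346744, plus strand) was the most abundant of the 9 genes by normalized count. It was at 67846, 72020.2, 74798, 53544 and 66857 in wild type, and at 62725, 35548, 52070.3, 37024 and 53248 in KO 1 to KO 5. KO 1 lay above wild type 4, so the groups overlapped, while the other KO libraries lay below every wild-type library. The difference was -0.50 ± 0.26 on the log2 scale (limma, adjusted p = 0.546, and 0.279 with the set term), and -0.22 after quantile normalization. The locus is complex, with 2457 bases that overlap *Nespas* and *Gm20721* on the other strand, and the counts sum over its transcripts.

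*Adcy3* encodes an adenylyl cyclase (chr12:4133103-4213525, plus strand). Its normalized counts were 2046, 1846, 2176, 1897 and 3452 in wild type, and 2756, 1580.4, 2244, 557 and 746 in KO 1 to KO 5. KO 2, KO 4 and KO 5 were below every wild-type library, KO 4 and KO 5 by the most, while KO 1 and KO 3 lay within the wild-type range. Over all libraries the difference was -0.75 ± 0.42 (limma, adjusted p = 0.580), and without KO 4 it was -0.43. Within replicates 1 to 3 it was 0.08 ± 0.20 (adjusted p = 0.844), and within replicates 4 and 5 it was -1.99 ± 0.40 (limma, adjusted p = 0.679). DESeq2 called *Adcy3* within replicates 4 and 5 (adjusted p = 0.00400) and called the difference between the sets (adjusted p = 0.00434), which limma did not (adjusted p = 0.455). In the limma fit without KO 5, which rests on KO 4 alone for its set and called 11.8% of all genes, the adjusted p was 0.0210. The gene shares 1380 bases with *Cenpo* on the other strand.

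*Prkar2b* encodes the RII-beta regulatory subunit of PKA, the form typical of adipose tissue (chr12:31958476-32061296, minus strand). Its values were 18099, 21459, 18239.7, 17725 and 30726 in wild type, and 10053, 6754, 13366, 4832 and 15354 in KO 1 to KO 5. As for *Adrb3*, every library labelled *Mgp*-KO lay below every wild-type library. The means were 21249.7 ± 5506 and 10072 ± 4394 (SD, n = 5 each), a 2.11-fold difference. Limma gave -1.17 ± 0.33 and did not call it (adjusted p = 0.214, and 0.0815 with the set term). DESeq2 called it both without (adjusted p = 0.0485) and with the set term (adjusted p = 0.0128). The difference lay in the same direction in both sets, -0.99 ± 0.24 in replicates 1 to 3 (limma, adjusted p = 0.0752) and -1.44 ± 0.68 in replicates 4 and 5 (adjusted p = 0.679).

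*Prkaca*, the C-alpha catalytic subunit of PKA (chr8:83972993-83996443, plus strand), was at 5185, 5288, 6227, 3488 and 4432 in wild type. It was at 5852, 3201, 5338, 1008 and 3306 in KO 1 to KO 5. KO 1 was second only to wild type 3, and KO 4 was the lowest of the 10 libraries. The difference of -0.60 ± 0.42 on the log2 scale did not pass (limma, adjusted p = 0.663), and it was -0.18 without KO 4 and -0.06 without KO 4 and KO 5.

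*Pde4b*, a phosphodiesterase specific for cAMP (chr4:102087543-102607259, plus strand), was at 213, 294, 261, 465 and 227 in wild type and at 137, 73.4, 201, 563 and 182 in KO 1 to KO 5. In replicates 1 to 3 each KO value was below each wild-type value (-0.998 ± 0.345, limma, adjusted p = 0.154). In replicates 4 and 5 the values overlapped (-0.02 ± 0.61). In both groups replicate 4 was the highest. Over all libraries the difference was -0.61 ± 0.45 (limma, adjusted p = 0.682), with -0.28 without KO 2 and -1.01 without KO 4.

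Of the 8 tested members, 0 passed over all libraries in limma, which called 0.0656% of all tested genes. An unadjusted p under 0.05 was found for 3 of the 8 (*Adrb3*, *Prkar2b*, *Adrb1*) and for 1421 of the 13714 genes tested. With the set term 1 of 8 passed (*Adrb3*, against 2.36% of all genes), and within replicates 1 to 3 again 1 of 8 (*Adrb3*, against 3.54%). At an unadjusted p under 0.05 there were 3 members and 2651 genes with the set term. Within replicates 1 to 3 there were 5 members and 3016 genes. Within replicates 4 and 5 limma called 0 members and 0% of all genes, with 1 member and 855 genes under an unadjusted p of 0.05, while DESeq2 called 1 (*Adcy3*, against 0.37%). For the difference between the sets limma called 0 members and 0.00729% of all genes, with 2 members and 1419 genes under an unadjusted p of 0.05. DESeq2 over all libraries, where all 9 members entered the fit, called 2 (*Adrb3* and *Prkar2b*, against 2.26%). EdgeR called 0 of 8 and 0.0219% of all genes, with 3 members and 1569 genes under an unadjusted p of 0.05. DESeq2 called the same 2 with the set term (against 7.42%) and within replicates 1 to 3 (against 9.19%), and it called *Adrb3* and *Adcy3* for the difference between the sets (against 0.406%). *Adrb3* alone was called by edgeR with the set term (against 2.49%), by limma blocked on replicate number (against 1.97%), and by limma without KO 4 and KO 5 (against 1.95%) or without wild type 2 as well (against 0.707%). The groups did not overlap for 2 of 8, both lower in KO, beside 2.11% of all tested genes. The median difference of the 8 was -0.68 on the log2 scale, with 7 below 0, while the median of all tested genes was 0.03. It was -0.65 in replicates 1 to 3 and -0.85 in replicates 4 and 5.

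**Figure D3:**
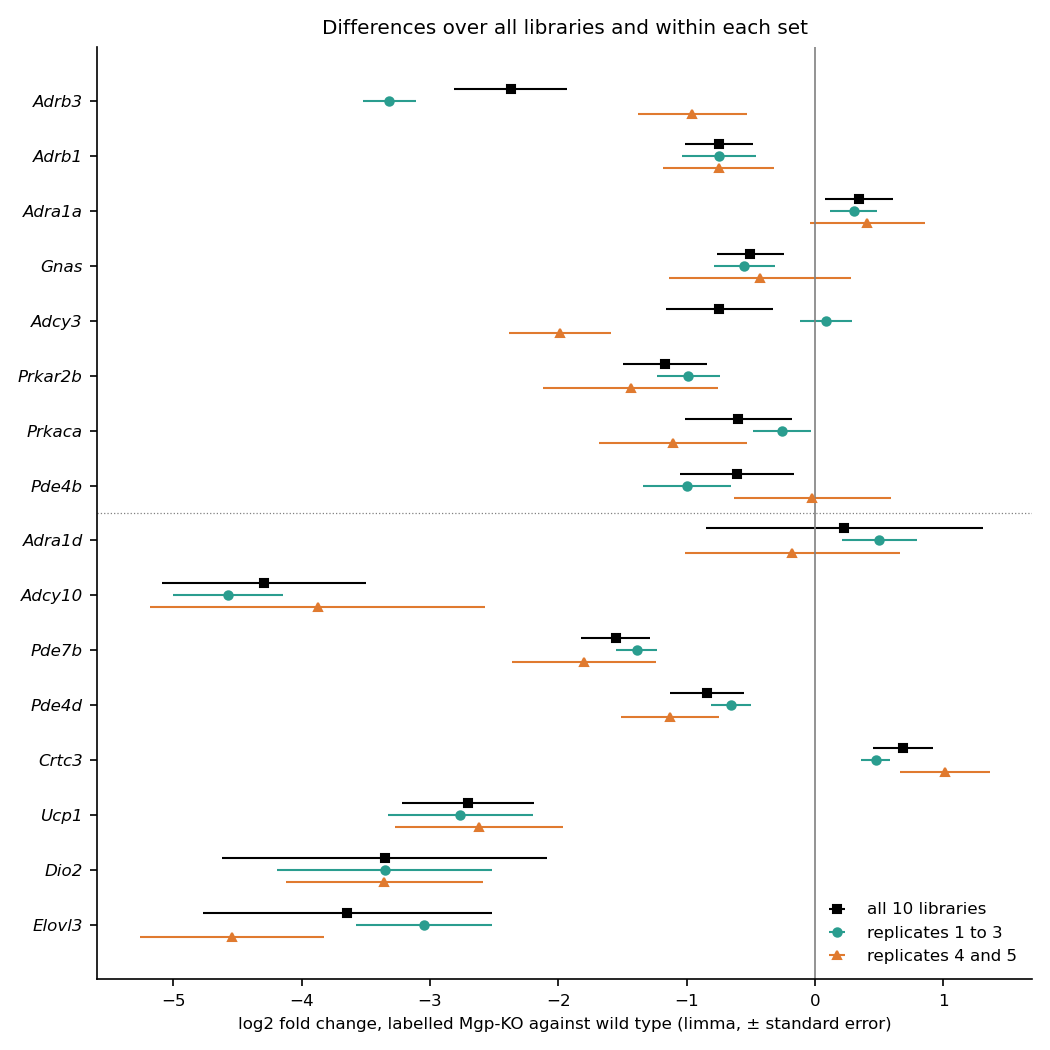
Log2 fold change of the KO libraries relative to wild type (horizontal axis, limma, bars ± SE) for the 8 tested members above the dotted line and further genes of the pathway below it, over all 10 libraries and within each set of replicates. *Adrb3* stands farther from 0 in replicates 1 to 3, and *Adcy3* in replicates 4 and 5.

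Other genes of the pathway were taken from lists by role. Over all libraries limma called 0 genes in each of the 11 lists, so the calls below are those with the set term or within replicates 1 to 3. At an unadjusted p under 0.05 that fit had 5 genes of the cAMP target list, 4 phosphodiesterases and 2 receptors, and 0 to 1 genes in each other list, where 1421 of all 13714 tested genes had one. Of 20 tested G protein subunit genes, 0 passed in either fit. *Gnb5*, a beta subunit, had the largest difference among them, with 218 to 464 normalized counts in wild type and 104 to 217 in KO, without overlap (-0.83 ± 0.25, limma, adjusted p = 0.248). *Gnal*, the olfactory relative of *Gnas*, was next at 0.73 ± 0.45 (adjusted p = 0.606), at 5.19 to 39.0 normalized counts.

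Of 8 tested adenylyl cyclases 1 passed with the set term, beside the same 2.36% of all genes as in the other lists. *Adcy10*, the soluble cyclase activated by bicarbonate, was at 25.0, 41.2, 68.4, 33.7 and 253 normalized counts in wild type. It had 1 read in each of KO 1, KO 2, KO 3 and KO 5, which is under the floor, and 17.8 normalized counts in KO 4. It fell with the set term (limma, adjusted p = 0.0139), and the fitted size depends on the pseudocount. *Adcy9*, chosen after its values were seen, rose within replicates 1 to 3 by 0.87 ± 0.18 (limma, adjusted p = 0.0477), from 1043 to 1199.7 in wild type up to 1671 to 2694 in KO. The median over the 8 cyclases was -0.04.

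Among 8 tested PKA subunits and inhibitors 0 passed in limma. *Prkar2b* and *Prkaca* had the largest differences. *Prkar1a*, the RI-alpha subunit, was named after its values were seen, since it was the other gene of the list whose groups did not overlap. It was at 3283 to 4276 in wild type and 2847 to 3202 in KO, a small difference of -0.22 ± 0.15 (limma, adjusted p = 0.663). Of 11 A-kinase anchoring proteins, which tether PKA to its targets, 0 passed. *Akap6* and *Akap2* had the largest differences, 0.88 ± 0.52 and 0.87 ± 0.56 (limma, adjusted p = 0.601 and 0.634), at no more than 46.7 normalized counts, and *Akap2* shares 6891 exonic bases with *Pakap*.

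Phosphodiesterases held 2 calls among 14 tested genes with the set term, both lower, where 2.36% of all genes were called. *Pde7b*, a cAMP-specific form, was at 299, 315, 321, 195 and 594 in wild type and at 119.8, 99.4, 139, 108 and 86.8 in KO 1 to KO 5, without overlap. It fell by 1.55 ± 0.26 on the log2 scale with the set term (limma, adjusted p = 0.0162, and 0.0504 without it). *Pde4d*, a close relative of *Pde4b*, was at 1085 to 2162 in wild type and 586 to 1574 in KO, and fell by 0.84 ± 0.19 with the set term (limma, adjusted p = 0.0429). The median over the 14 genes was -0.07, and 9 were below 0.

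Of 8 receptor kinases, arrestins and RGS genes, which damp receptor signals, 0 passed. *Grk3*, a receptor kinase, differed by -0.72 ± 0.23 (limma, adjusted p = 0.261) and *Rgs2* by 0.64 ± 0.33 (adjusted p = 0.547). Neither Epac gene, the cAMP sensors apart from PKA, passed (*Rapgef3* 0.61 ± 0.29 and *Rapgef4* 0.09 ± 0.49, limma, adjusted p = 0.497 and 0.965). Of 10 CREB family genes and coactivators 1 passed with the set term, and *Crebbp* was next at 0.45 ± 0.25 (limma, adjusted p = 0.579). *Crtc3*, a CREB coactivator, was at 318, 347, 354, 189 and 194 in wild type and at 476, 461, 478, 466 and 320.04 in KO. KO 1 to KO 4 were above every wild-type library and KO 5 lay within the wild-type range, and it rose by 0.69 ± 0.15 with the set term (limma, adjusted p = 0.0424).

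Genes that cAMP induces or that PKA acts on in brown fat held 3 calls among 15 tested with the set term, all 3 lower, where 2.36% of all genes were called. *Ucp1*, the uncoupling protein that makes heat, was at 38421, 41322, 46191, 62428 and 116019 in wild type. It was at 8939, 2201, 11904, 12319 and 15641 in KO 1 to KO 5, below every wild-type library. *Ucp1* fell by 2.70 ± 0.40 with the set term (limma, adjusted p = 0.0127). *Dio2*, which activates thyroid hormone, was at 698, 491, 376, 7122 and 7534 in wild type and at 64.8, 10.7, 157, 1739 and 293 in KO. The wild-type values of the sets did not overlap, and it fell by 3.35 ± 0.63 with the set term (limma, adjusted p = 0.0228). *Elovl3*, a fatty acid elongase, was at 35.0, 90.6, 146, 1130.1 and 2037 in wild type and at 5.28, 10.7, 10.7, 139 and 29.3 in KO, and it fell by 3.64 ± 0.51 (adjusted p = 0.0104). Of the 15 genes, 13 were below 0, and the median was -0.94 beside 0.03 for all tested genes. The median was -0.48 in replicates 1 to 3, with 12 of 15 below 0, and -1.71 in replicates 4 and 5, with 15 of 15 below 0, beside 0.02 for all tested genes in both. The list was chosen with results of these libraries known and is not independent evidence of its direction.

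**Figure D4:**
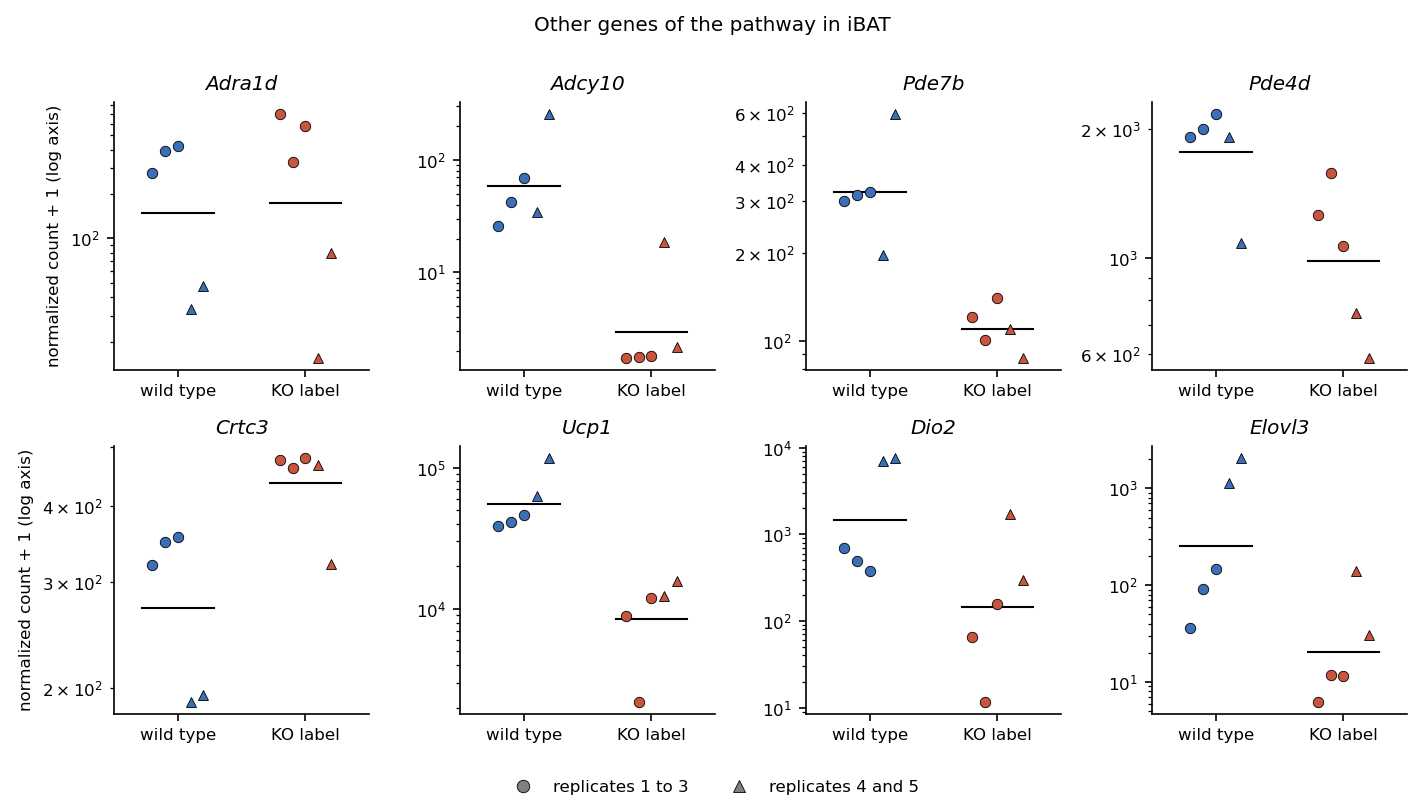
Normalized counts + 1 on a log axis of further pathway genes in each library, wild type against the libraries labelled KO; circles are replicates 1 to 3, triangles replicates 4 and 5, and lines geometric means. *Adra1d* is lower in replicates 4 and 5 of both groups, *Adcy10* is near 0 in 4 KO libraries, and *Ucp1* and *Pde7b* show no overlap.

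Genes for the making, transport and breakdown of catecholamines were tested for 4 of 11, and 0 passed. *Slc22a3*, an extraneuronal transporter of noradrenaline, differed by -1.06 ± 0.44 (limma, adjusted p = 0.423). *Th* and *Dbh*, the enzymes of noradrenaline synthesis, were at no more than 5.86 and 0.821 normalized counts in any library. Sympathetic neurons, which use them, have their cell bodies outside iBAT.

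Over the 10 libraries, with the mean of each set subtracted, the genes whose log2 levels were most like *Adrb3* were *Ptger3*, *Dctn5*, *Gmppb*, *Angptl8* and *Sorcs2* (Pearson r = 0.98, 0.98, 0.98, 0.97 and 0.97). Without that subtraction their r was 0.96, 0.83, 0.92, 0.96 and 0.60. *Ptger3*, a prostaglandin E receptor, was at 325 to 948 normalized counts in wild type, at 25.2 to 88.7 in KO 1 to KO 3, and at 293.0 and 293.1 in KO 4 and KO 5. Among the members the r with set means subtracted was 0.79 for *Gnas*, 0.76 for *Adrb1*, 0.70 for *Prkar2b*, 0.54 for *Pde4b*, 0.39 for *Prkaca*, 0.24 for *Adcy3* and -0.51 for *Adra1a*. *Gnas* ranked 476th and *Adrb1* 625th among all tested genes. These values describe 10 libraries that share size factors and groups, and carry no test.

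Markers of other cell types stood high or low in some of the same libraries. Schwann cell and nerve markers, 8 of 10 tested, summed to 3126 to 4388 normalized counts in wild type, to 1663 to 2042 in KO 1 to KO 3, and to 4129 and 4209 in KO 4 and KO 5. As for *Adrb3*, KO 1 to KO 3 were the lowest libraries. Of these, *Pmp22* fell within replicates 1 to 3 (limma, adjusted p = 0.0225). Skeletal muscle markers, 10 of 10 tested, summed to 32510 in KO 2 and 35839 in KO 5 but to 36.1 to 6188 in the other libraries. KO 2 was the lowest library for *Adrb3*, *Adrb1* and *Gnas*. KO 5, with the larger sum, was the highest of KO 1 to KO 5 for *Adrb3*. Among KO 1 to KO 5 its *Gnas* lay below KO 1 alone, and its *Adrb1* above KO 2 alone. Endothelial markers, 12 of 12 tested, summed to 24738 to 41813 in wild type and 27956 to 74162 in KO, with the highest value in KO 4, the lowest library for *Adcy3*, *Prkar2b* and *Prkaca*. Brown adipocyte markers without overlap were 1 of 12 (*Ucp1*, lower, beside 2.11% of all tested genes). White adipocyte markers, 5 of 7 tested, summed to 704 to 1127 in wild type and 524 to 2988 in KO. Adipose progenitor markers, 10 of 10 tested, summed to 11289 to 23829.7 and 9946 to 22179, smooth muscle and pericyte markers, 10 of 10, to 11395 to 16845 and 11488 to 15349, and macrophage and leukocyte markers, 10 of 10, to 1299 to 2017 and 1429 to 2114. The part of these cell types in the differences of the 9 genes was not tested.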

How the data were processed

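RNA of iBAT from 10 mice (5 wild type, 5 labelled *Mgp*-KO) gave single-end reads of 50 bases. The authors aligned the reads to mm10 and counted genes with STAR, and deposited normalized counts, a signal made by dividing counts by DESeq2 size factors. The annotation release and strand setting are not given in the sources used here. Libraries held 9253793 to 22252260 reads. Dividing by the value of 1 read gave whole reads for 100% of values (within 0.01 reads).

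Groups were taken from the labels. The main test was limma 3.58.1 (R 4.3.3) on log2(normalized count + 1), with its variance allowed to follow the mean, over 13714 genes with a mean of at least 10, with Benjamini-Hochberg adjustment and a threshold of 0.05. Fold changes are on that scale, which understates those of low genes. Alternatives were a term for replicates 1 to 3 against 4 and 5, each set alone, libraries left out, other pseudocounts, filters and scalings, and edgeR 4.0.16 and DESeq2 1.42.0 on the recovered reads, which called 3 and 374 genes over all libraries. The fits were tested on simulated data. Ratios within a library were compared by exact permutation tests.

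Members and lists were chosen with earlier results of these data known. Named were the members, adrenergic receptors, *Mgp*, the genes of each pathway list past the threshold in limma without or with the set term (filled up to 2 by the size of the difference), and the 5 genes most like *Adrb3*. *Adcy9*, *Prkar1a*, *Xist* and *Pmp22* were named after their values were seen. Some genes that this rule names are not reported here.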

Additional observations from a re-analysis of the deposited data

Results flagged for a closer look

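Of 18 groups of 5 libraries examined for the 9 genes, 4 had 1 library far from the rest, where chance gives about 5% of groups. *Adrb3* in wild type 4 was at 1200.4 normalized counts, with a gap of 0.83 of the range of the group. *Adcy3* in wild type 5 was at 3452 (gap 0.79), *Prkar2b* in wild type 5 at 30726 (gap 0.71), and *Pde4b* in KO 4 at 563 (gap 0.74), against a critical gap of 0.71. All 4 libraries were of replicates 4 and 5. *Mgp*, the targeted gene, differed between the groups by unequal amounts in replicates 1 to 3 and in replicates 4 and 5 (limma, interaction adjusted p = 0.000251), which is the difference of KO 4 and KO 5 from their labels described above.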

How the results depend on the processing

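Limma called 9 genes over all libraries, and 29 with a pseudocount of 10, 34 with quantile normalization, 1 without a filter, 15 with a mean of at least 50, 324 with the set term, 486 in replicates 1 to 3, 0 in replicates 4 and 5 (855 at an unadjusted p under 0.05), 267 without KO 4 and KO 5, and 97 without wild type 2 as well. EdgeR called 3 (341 with the set term) and DESeq2 374 (1152 with the set term). Leaving out 1 library gave 0 to 93 genes: 0 without wild type 2, 3 or 5 or KO 1 or KO 3, 34 without wild type 4, 93 without KO 4 and 5 without KO 5. Members called numbered 0 at first, 2 with DESeq2 (also with the set term), 1 with the set term in limma or edgeR, 1 in replicates 1 to 3, 1 without KO 4 and KO 5, with or without wild type 2, and 0 to 1 with 1 library left out (1 without wild type 4 or KO 4). With the set term 1 member was called, 2 in DESeq2, and 0 to 1 with 1 library left out (0 without wild type 2 or 3, *Adrb3* adjusted p = 0.0555 and 0.0605). Within replicates 1 to 3 it was 1 (DESeq2 2), within replicates 4 and 5 it was 0 (DESeq2 1), and for the difference between the sets 0 (DESeq2 2, and 0 to 3 with 1 library left out, 3 without KO 5, where 11.8% of all genes were called and KO 4 alone stood for its group and set). The cause of these shifts was not tested.

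Across 28 settings each, *Adrb3* stayed lower (-3.32 to -0.96 on the log2 scale) and was called in 11, and *Prkar2b* stayed lower (-1.44 to -0.93) and was called in 2. The other tested members were called in none of these settings and kept their direction, except that *Adcy3* was reversed in replicates 1 to 3 (0.083). These settings leave out DESeq2 within replicates 1 to 3, which also called *Prkar2b*, and within replicates 4 and 5, which called *Adcy3*. They also leave out the fits of the difference between the sets. The *Adrb1* to *Adrb3* ratio did not pass in replicates 1 to 3 (2.57) or 4 and 5 (0.20), nor the *Adra1a* to *Adrb3* ratio (3.62 and 1.36). With 1 library left out they ranged from 1.43 to 1.94 and from 2.28 to 3.20. The *Adra2a* to *Adrb3* ratio, which depends on the pseudocount, was 1.98 with a pseudocount of 10, 2.46 without KO 4 and KO 5, with or without wild type 2, and reversed in replicates 4 and 5 (-1.51). The *Prkar2b* to *Prkaca* ratio passed without KO 4 and KO 5 (-1.04), but not without wild type 2 as well (-1.06, exact permutation, adjusted p = 0.0571).

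The study describes pairs of mice, but no source used here ties the replicate numbers to pairs, and the numbers were not taken to pair the libraries. Same-numbered libraries correlated at 0.0559 to 0.527 (4 of 5 over 0.1), no closer than other numbers of their set (mean 0.390 against 0.416), and 5 of 10 correlated best with their own number. With the replicate block limma called 270 genes and edgeR 222, each with 1 member (*Adrb3*), and the *Adrb1* and *Adra1a* ratios to *Adrb3* (1.62 and 2.72) could not pass, as 5 pairs allow no exact p under 0.0625.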
